A study of Mus musculus with 12 samples.

Results

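The 32 genes described here were listed by name as direct targets of p53, a transcription factor that responds to stress. Whether p53 acts on each of them in these cells was not tested. They were grouped by outcome: cell cycle arrest, apoptosis, feedback on p53, DNA repair, and metabolism and other roles. Of the 32, 29 could be measured, among 19938 genes in all. Each gene was represented by the probe set that carried its symbol and no other, taking the one with the highest mean where a gene had several. Bax, Gdf15 and Trp53, the gene of p53 itself, were not analysed here, and the probe set of Cdkn1a carried a second gene as well and was not used.

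The study silenced UBF, the nucleolar factor encoded by Ubtf, with which RNA polymerase I transcribes ribosomal RNA, in NIH3T3, mouse embryo fibroblasts that grow as an immortal line. RNA was taken 48 h after transfection with DharmaFECT 2. The Mock cells received the reagent and no siRNA. The sirEGFP cells received 40 nM of an siRNA named for EGFP, and the knockdown cells received 40 nM of sirUBF oligo #1 or of sirUBF oligo #2. Each of the 4 groups held 3 arrays, which the design text calls biological replicates. All values are log2 expression values as deposited, so a difference of 1 is a doubling.

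The p53 protein is normally kept scarce by Mdm2, a ubiquitin ligase that is itself a p53 target. DNA damage, or disturbed ribosome production that frees ribosomal proteins to bind Mdm2, can let p53 accumulate. It then switches on genes that halt the cell cycle, repair DNA, change metabolism or prepare the cell for apoptosis, and other genes that shut p53 down again. In fibroblasts arrest is the outcome best known to follow.

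Response elements of p53 are built from copies of a 10-base motif, the p53 decamer, and matches to its consensus near gene starts are shown for the feedback targets and for 2 members that separated the UBF siRNAs. The sequences are RefSeq promoter windows of GRCm38.p6, which run from 250 bases before to 50 bases after each start. They are written 5′ to 3′ on the gene's strand, with the decamer match in capitals. The Mdm2 stretch lies at chr10:117710900-117710979 on the minus strand and its match begins 186 bases before the start. The Ccng1 stretch is chr11:40755427-40755506, minus strand, with the match 185 bases before the start. The Ppm1d stretch is chr11:85311087-85311166, plus strand, with the match 132 bases before it. The Ei24 stretch is chr9:36797335-36797414, minus strand, with the match ending next to the start, and the Sesn1 stretch is chr10:41887231-41887310, plus strand, with the match 173 bases before the second of its listed starts.
Mdm2: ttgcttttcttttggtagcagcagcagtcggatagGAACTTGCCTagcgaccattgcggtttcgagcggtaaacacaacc
Ccng1: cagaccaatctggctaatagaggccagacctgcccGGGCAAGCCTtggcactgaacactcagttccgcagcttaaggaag
Ppm1d: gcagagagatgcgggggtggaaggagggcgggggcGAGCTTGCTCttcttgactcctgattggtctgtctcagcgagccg
Ei24: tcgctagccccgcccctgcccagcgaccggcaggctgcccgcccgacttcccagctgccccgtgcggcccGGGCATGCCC
Sesn1: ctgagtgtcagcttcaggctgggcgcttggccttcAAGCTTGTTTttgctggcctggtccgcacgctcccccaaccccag

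Of the 32 genes, 24 had a promoter window in the table, 32 windows in all. A decamer match was present in 12 of these windows, which is 37.5%, against 8.36% of all 32851 windows. The matches fell in 11 genes, and all 3 feedback genes had one. Fas, Btg2, Phlda3 and Ephx1 had windows without a match. The decamer consensus reads the same on both strands, so each match counts for both. A match is a description of letters in this window and says nothing of binding.

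The arrays themselves were checked in 3 ways. The 6 knockdown arrays all had less Ubtf RNA than any of the 6 controls, but the mean change against sirEGFP was -0.58 ± 0.14 (SE; limma adjusted p = 0.0526) and just missed the threshold. On the arrays as a whole, sirEGFP array 1 and oligo #1 arrays 1 and 2 differed most from their own groups, along an axis that held 41.5% of the spread within groups. Of 13 fibroblast markers, Vim, S100a4 and Fn1 had mean levels of 12.8, 12.5 and 11.2 and Lum and Postn 3.20 and 5.09, and array means over the list were 8.13 to 8.28 in Mock, 7.98 to 8.16 in sirEGFP, 8.21 to 8.45 for oligo #1 and 8.48 to 8.55 for oligo #2. Means over 7 epithelial markers ran from 4.57 to 4.86. Means over 7 macrophage markers were 5.05 to 5.18 with oligo #1 and 4.68 to 5.01 on the other 9 arrays. Among these 7, Cd68 and Lyz2 had mean levels of 6.49 and 6.14 and Ptprc and Adgre1 3.94 and 3.28.

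Compared with sirEGFP, 5 of the 29 p53 targets rose and 0 fell for the mean of both UBF siRNAs (limma, adjusted p under 0.05), while 1.93% of all genes were called, 1.21% higher and 0.722% lower. The genes that rose were Fas, Abhd4, Ephx1, Mdm2 and Zmat3, with changes of 0.58 to 0.88. The median change over the 29 was 0.23 and 25 lay above 0, or 86.2%, against a median of 0.0077 and 52.1% above 0 over all genes. The 13 fibroblast markers had a median of 0.29 with 92.3% above 0 in the same comparison, and 0 were called (limma; 7 had an unadjusted p under 0.05). Their part in the members' changes was not tested. Another 8 of the 29 had an unadjusted limma p under 0.05, which makes 13, all of them higher. Over all genes 2640 of 19938 had one, 1548 higher and 1092 lower. Since RNA came from whole cultures, more cells expressing a gene and more of its RNA per cell cannot be told apart. With oligo #1 alone 3 rose and 0 fell, against 2.47% of all genes called, 1.04% higher and 1.43% lower, and with oligo #2 alone 5 rose and 0 fell, against 2.26% called, 1.52% higher and 0.742% lower. With replicate number as a block, 8 rose with oligo #2, while 773 genes in all were called in place of 451. The count of 5 for the mean became 0 without sirEGFP array 2, where 108 genes in all were called and 9 members had an unadjusted p under 0.05, and 1 without sirEGFP array 3.

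**Figure D1:**
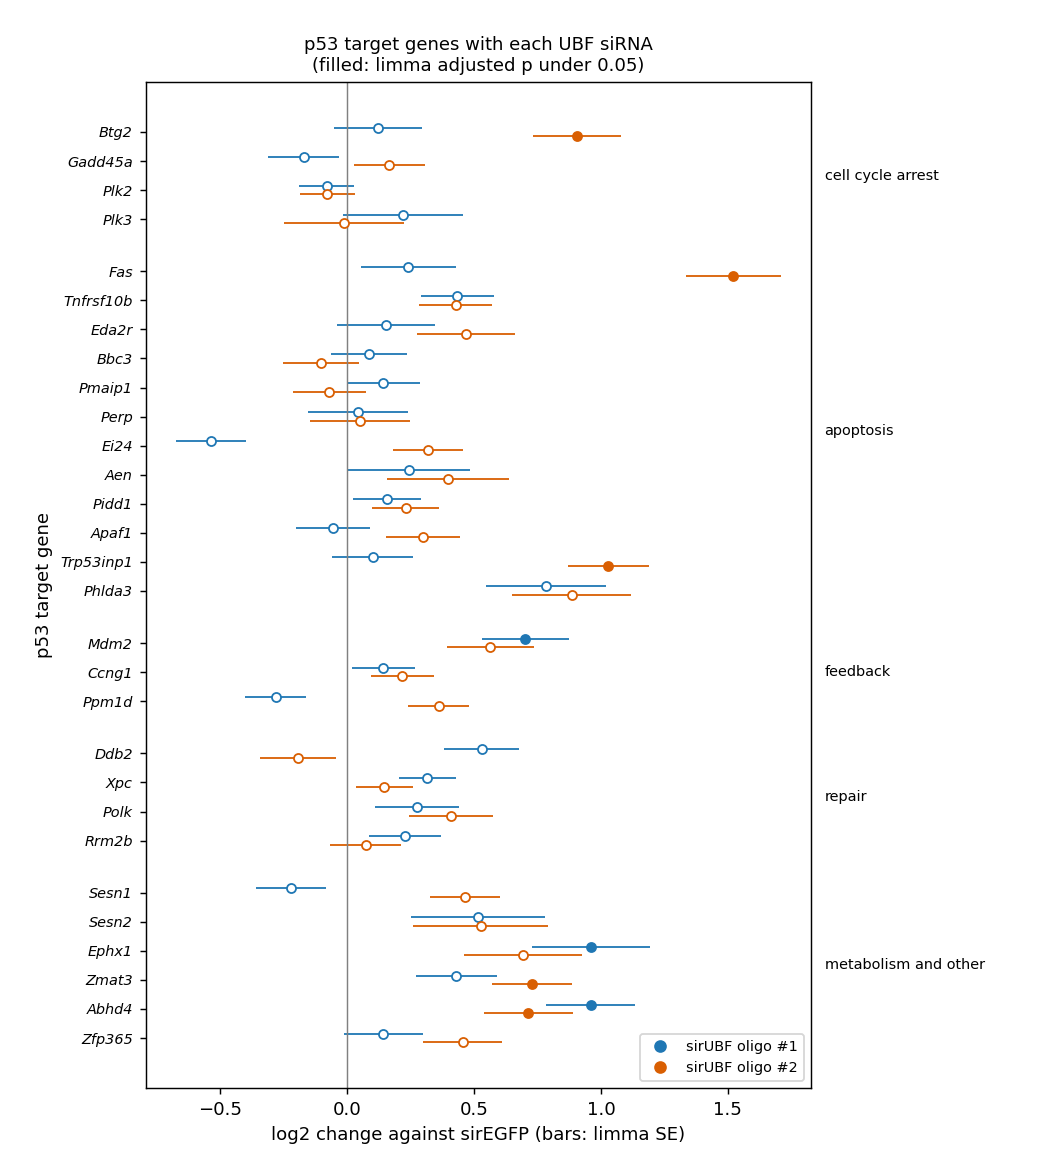
Log2 change of each of the 29 measured p53 targets against sirEGFP with oligo #1 and with oligo #2 (x axis), with genes grouped by outcome (y axis); bars are limma's standard errors and filled points passed an adjusted p of 0.05. Fas with oligo #2 lies furthest right at 1.52, and Ei24 with oligo #1 lies furthest left at -0.54.

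Mdm2, the ligase that marks p53 for degradation, was the feedback gene that rose. It stood at 9.14, 8.84 and 9.29 in Mock, 9.32, 9.18 and 9.63 in sirEGFP, 10.02, 9.90 and 10.31 for oligo #1 and 9.86, 9.73 and 10.24 for oligo #2. All 6 knockdown arrays lay above all 6 controls, a pattern that 1.43% of all genes showed and that 4 other members shared. Against sirEGFP the mean change was 0.63 ± 0.15, or 1.55-fold (limma adjusted p = 0.0419). Oligo #1 gave 0.70 (limma adjusted p = 0.0426) and oligo #2 gave 0.56 (adjusted p = 0.116, or 0.00723 with the replicate block). The siRNAs differed by -0.14, with a 95% interval of -0.50 to 0.23. Leaving out any of 9 arrays, all but Mock 2, oligo #1 array 2 and oligo #2 array 2, ended the call of the mean (adjusted p 0.0524 to 0.273), as did centring the arrays (0.0835) and fitting only the arrays compared (0.0709).

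The other feedback genes did not pass with either siRNA against sirEGFP. Ccng1, cyclin G1, which recruits a phosphatase to Mdm2, stood at 12.03, 11.996 and 12.15 in Mock, 12.06, 12.19 and 12.39 in sirEGFP, 12.19, 12.46 and 12.40 for oligo #1 and 12.31, 12.44 and 12.54 for oligo #2. The sirEGFP arrays overlapped every other group and the Mock arrays lay below all knockdown arrays. Its mean change against sirEGFP was 0.18 ± 0.11 (limma adjusted p = 0.544). Ppm1d, the Wip1 phosphatase that switches off p53 and the kinases above it, stood at 8.39, 8.22 and 8.40 in Mock, 8.55, 8.65 and 8.68 in sirEGFP, 8.14, 8.42 and 8.48 for oligo #1 and 9.04, 9.05 and 8.87 for oligo #2. The oligo #2 arrays lay above all others and the oligo #1 arrays at Mock levels. Against sirEGFP Ppm1d changed by -0.28 (limma adjusted p = 0.314) with oligo #1 and 0.36 (adjusted p = 0.165) with oligo #2.

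Among the 4 measured arrest genes, Btg2 rose with oligo #2 and the others passed with neither siRNA. Btg2, an antiproliferative cofactor of mRNA deadenylation, stood at 5.91, 5.94 and 5.94 in Mock, 5.75, 5.93 and 6.34 in sirEGFP, 5.76, 6.29 and 6.32 for oligo #1 and 6.84, 6.75 and 7.15 for oligo #2. The oligo #2 arrays were above every other array, and the oligo #1 arrays fell within the range of the controls. Btg2 rose by 0.91 ± 0.17 with oligo #2 (limma adjusted p = 0.0126) and changed by 0.12 with oligo #1 (adjusted p = 0.865). The oligo #2 call was lost without sirEGFP array 2 (0.0666) or oligo #2 array 3 (0.0716). Gadd45a, a growth arrest and damage-response protein, and the polo-like kinases Plk2 and Plk3 had mean changes of -0.0029, -0.08 and 0.10, none of which passed. For this mean the interval of Plk2 ran from -0.28 to 0.12 and that of Gadd45a from -0.26 to 0.26. A mean change as large as that of Mdm2 lay outside both, while the interval of Plk3 ran from -0.34 to 0.54. Taken alone, oligo #1 and oligo #2 gave -0.17 and 0.17 for Gadd45a, and 0.22 and -0.01 for Plk3.

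In the apoptosis group Fas had the largest change against sirEGFP. Fas, the receptor for Fas ligand, stood at 5.43, 5.23 and 5.66 in Mock, 5.85, 5.37 and 5.86 in sirEGFP, 6.25, 5.60 and 5.95 for oligo #1 and 7.32, 6.94 and 7.39 for oligo #2. The oligo #2 arrays were well above all others, while oligo #1 overlapped the controls through its array 2. Fas rose by 1.52 ± 0.19 with oligo #2, or 2.87-fold (limma adjusted p = 0.000439), and changed by 0.24 ± 0.19 with oligo #1 (adjusted p = 0.68). The call for the mean of both (0.88, limma adjusted p = 0.0121) thus came mostly from oligo #2, and it was lost without sirEGFP array 2 (0.116).

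Tnfrsf10b, the mouse receptor for TRAIL, showed another pattern. Its values were 8.20, 8.19 and 8.0008 in Mock, 8.22, 8.08 and 8.07 in sirEGFP, 8.84, 8.23 and 8.60 for oligo #1 and 8.61, 8.42 and 8.63 for oligo #2. All 6 knockdown arrays lay above all 6 controls, narrowly so for oligo #1 array 2. The change was 0.43 with each siRNA (limma adjusted p = 0.156 and 0.167) and 0.43 ± 0.12 for their mean (adjusted p = 0.106), so it did not pass. Eda2r, a receptor for ectodysplasin, changed by 0.15 and 0.47 with oligo #1 and oligo #2 and did not pass against sirEGFP.

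Trp53inp1, a stress protein that helps activate p53 and takes part in autophagy, was lowest in Mock and highest with oligo #2. It stood at 5.86, 5.86 and 6.20 in Mock, 6.68, 6.88 and 6.998 in sirEGFP, 6.94, 7.13 and 6.80 for oligo #1 and 7.66, 7.77 and 8.22 for oligo #2. The sirEGFP and oligo #1 arrays overlapped, and neither Mock nor oligo #2 overlapped any other group. With oligo #2 Trp53inp1 rose by 1.03 ± 0.16 against sirEGFP (limma adjusted p = 0.00311), and with oligo #1 it changed by 0.10 (adjusted p = 0.879). Set against Mock, both siRNAs raised it, oligo #1 by 0.98 (limma adjusted p = 0.00393) and oligo #2 by 1.91 (1.88e-05).

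Phlda3, an inhibitor of Akt signalling, stood at 7.68, 7.86 and 7.50 in Mock, 7.73, 7.17 and 7.22 in sirEGFP, 8.81, 7.63 and 8.03 for oligo #1 and 8.45, 8.17 and 8.15 for oligo #2. Of the 6 knockdown arrays 5 lay above all controls, and oligo #1 array 2 was at the Mock level. The mean change was 0.83 ± 0.20, which just missed the threshold (limma adjusted p = 0.0508). With oligo #2 alone it was 0.88 (limma adjusted p = 0.07, or 0.0144 with the replicate block). The mean passed without oligo #1 array 1 (0.67, 0.0386), oligo #1 array 2 (0.96, 0.00806) or sirEGFP array 1 (1.01, 0.0291). For Phlda3, sirEGFP arrays 2 and 3 were below every Mock array. Against Mock, Phlda3 changed by 0.47 with oligo #1 and 0.58 with oligo #2 and did not pass (limma adjusted p = 0.424 and 0.238). Ei24, an endoplasmic reticulum protein of autophagy, is described with the difference between the siRNAs.

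Bbc3, which encodes the BH3-only protein Puma, is the best known apoptotic member measured and did not pass. It stood at 4.86, 4.97 and 4.57 in Mock, 5.12, 4.80 and 4.76 in sirEGFP, 5.20, 4.91 and 4.83 for oligo #1 and 4.69, 4.98 and 4.69 for oligo #2. The 4 groups overlapped, and the mean change of -0.01 had an interval of -0.29 to 0.27. The mean changes of Pmaip1, which encodes Noxa, another BH3-only protein, and of Perp, a membrane protein of desmosomes, were 0.04 and 0.05. On every array Bbc3, Pmaip1 and Perp lay below that array's median over the fitted genes (5.57 to 5.72). How far they lay above background was not tested. Values for Aen, an exonuclease, Pidd1, the scaffold that activates caspase-2, and Apaf1, the core of the apoptosome, were 0.32, 0.19 and 0.12, and none passed. Over the 12 apoptosis members 1 was called for the mean of both siRNAs, against 1.93% of all genes, and the median was 0.25.

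The 4 repair genes all had mean changes above 0 and none passed. Ddb2, which recognises ultraviolet lesions for nucleotide excision repair, stood at 7.60, 7.12 and 7.32 in Mock, 7.57, 7.41 and 7.79 in sirEGFP, 7.94, 8.30 and 8.12 for oligo #1 and 7.41, 7.27 and 7.50 for oligo #2. The oligo #1 arrays were above all 9 others and the oligo #2 arrays fell within the controls. Ddb2 changed by 0.53 with oligo #1 (limma adjusted p = 0.0844), while its change was -0.19 with oligo #2 (adjusted p = 0.677), and against Mock it rose by 0.77 with oligo #1 (limma adjusted p = 0.0105). Xpc, the damage sensor of the same pathway, was among the members with all 6 knockdown arrays above all 6 controls. Its controls spanned 6.25 to 6.55 and its knockdown arrays 6.57 to 6.97, and the mean change of 0.23 ± 0.10 did not pass (limma adjusted p = 0.306). Polk, a DNA polymerase that copies past lesions, changed by 0.34, and Rrm2b, a subunit of ribonucleotide reductase, by 0.15.

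The genes of metabolism and other roles had the highest group median, 0.55 for the mean of both siRNAs. Of the 6 measured 3 rose, against 1.21% of all genes called higher. Abhd4, a lipase-like hydrolase of lipid metabolism, stood at 5.86, 5.97 and 5.69 in Mock, 5.97, 5.74 and 5.49 in sirEGFP, 6.91, 6.33 and 6.85 for oligo #1 and 6.71, 6.20 and 6.44 for oligo #2. All 6 knockdown arrays lay above all 6 controls. The mean change was 0.84 ± 0.15, or 1.79-fold (limma adjusted p = 0.0117), and Abhd4 was the member called with each siRNA taken alone, at 0.96 with oligo #1 (adjusted p = 0.00963) and 0.71 with oligo #2 (0.0489). Leaving out sirEGFP array 2 (0.0679) or 3 (0.101) ended the call of the mean. The oligo #2 call was lost on leaving out any of 9 arrays (0.0516 to 0.221) and the oligo #1 call without sirEGFP array 3 (0.0539) or oligo #1 array 3 (0.0551).

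Zmat3, a zinc finger protein that binds RNA and regulates splicing, stood at 5.91, 5.89 and 6.24 in Mock, 6.19, 5.91 and 6.29 in sirEGFP, 6.91, 6.38 and 6.40 for oligo #1 and 6.88, 6.93 and 6.77 for oligo #2. The knockdown arrays again lay above all controls. Zmat3 rose by 0.58 ± 0.14 for the mean of both (limma adjusted p = 0.0425), and its rise was 0.73 ± 0.16 with oligo #2 (adjusted p = 0.0251), against 0.43 with oligo #1 (0.213). The call of the mean was lost on leaving out any array but Mock 3 and oligo #1 array 2 (0.055 to 0.283), and that with oligo #2 without sirEGFP array 2 (0.137) or any oligo #2 array (0.0626 to 0.0942).

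Ephx1, the microsomal epoxide hydrolase that detoxifies epoxides, stood at 10.13, 10.19 and 10.28 in Mock, 10.29, 9.65 and 9.58 in sirEGFP, 11.17, 10.19 and 11.03 for oligo #1 and 10.79, 10.32 and 10.49 for oligo #2. Here sirEGFP arrays 2 and 3 were below every Mock array, and oligo #1 array 2 lay inside the Mock range. Against sirEGFP the mean change was 0.83 ± 0.20 (limma adjusted p = 0.0491) and that of oligo #1 was 0.96 (adjusted p = 0.0412), while against Mock oligo #1 gave 0.60 (0.247) and oligo #2 gave 0.33 (0.608). With oligo #2 the change against sirEGFP was 0.69 (limma adjusted p = 0.167, or 0.0496 with the replicate block). The call of the mean was lost on leaving out any array but sirEGFP 1 and oligo #1 array 2 (0.0628 to 0.276), and the oligo #1 call on leaving out any of 9 arrays (0.0515 to 0.192).

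The sestrins, which restrain mTORC1 when nutrients or redox balance fail, did not pass against sirEGFP. Sesn2 stood at 6.34, 6.68 and 6.50 in Mock, 6.96, 6.26 and 6.02 in sirEGFP, 7.43, 6.34 and 7.02 for oligo #1 and 7.19, 6.56 and 7.06 for oligo #2. Array 2 of each siRNA fell among the controls, and the mean change of 0.52 ± 0.23 had a limma adjusted p of 0.337. Sesn1 changed by -0.22 with oligo #1 and 0.47 with oligo #2. Zfp365, a zinc finger gene linked to genome stability, changed by 0.14 and 0.45.

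**Figure D2:**
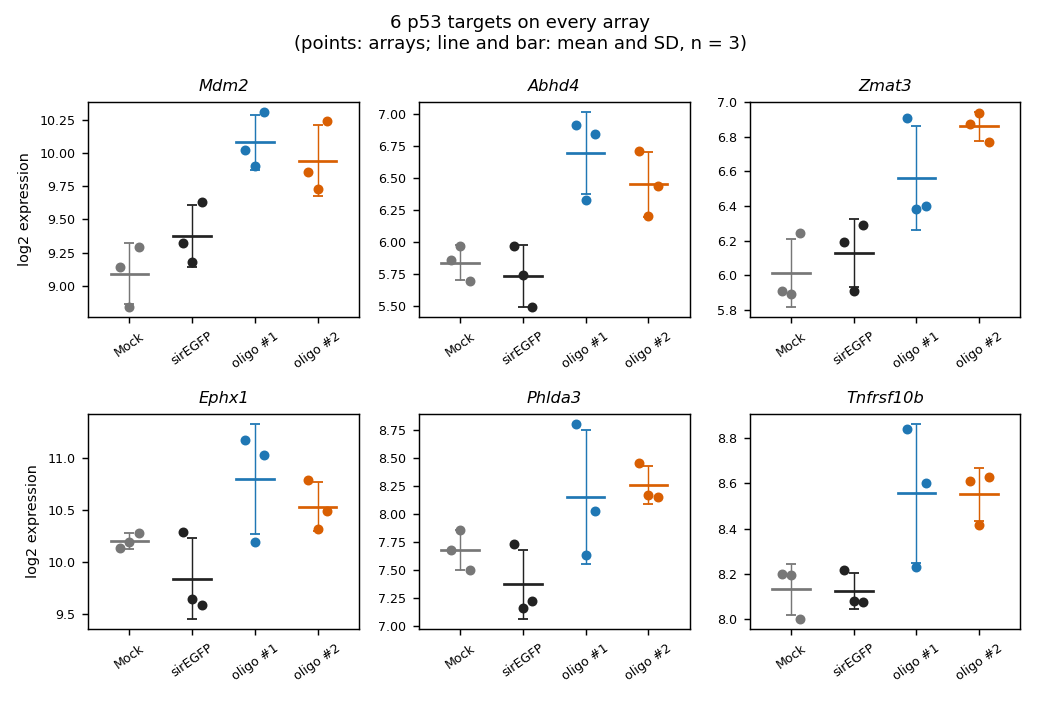
Log2 expression (y axis) of 6 p53 targets on each array of the 4 groups (x axis), with points for arrays and a line and bar for the mean and SD of 3 arrays. Mdm2, Abhd4, Zmat3 and Tnfrsf10b have all 6 knockdown arrays above all 6 controls, whereas Ephx1 and Phlda3 each have oligo #1 array 2 inside the control range.

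The UBF siRNAs were then compared with each other, in the fit whose spread comes from all 12 arrays. Of the 29 members 7 differed (limma, adjusted p under 0.05), 6 of them higher with oligo #2 and 1 lower, against 3.67% of all genes called, 2.3% higher and 1.37% lower. Higher with oligo #2 were Fas by 1.28 (adjusted p = 0.00145), Trp53inp1 by 0.93 (0.00432), Ei24 by 0.86 (0.00271), Btg2 by 0.78 (0.0198), Sesn1 by 0.69 (0.0112) and Ppm1d by 0.64 (0.00745). Ddb2 was lower by 0.72 (0.0129). The 7 span arrest, apoptosis, feedback, repair and metabolism, and in each of them the oligo #1 and oligo #2 arrays did not overlap. All 3 oligo #2 arrays lay above all oligo #1 arrays in these 6 higher members and in Gadd45a, 7 of 29, against 9.19% of all genes, and below them in Ddb2, against 9.14%.

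For Ei24 and Sesn1, as for Ppm1d and Ddb2 above, the group means of the UBF siRNAs lay on opposite sides of sirEGFP. Ei24 stood at 9.71, 9.71 and 9.94 in Mock, 10.34, 10.19 and 10.41 in sirEGFP, 9.47, 9.91 and 9.94 for oligo #1 and 10.68, 10.52 and 10.69 for oligo #2. Mock and oligo #1 overlapped, and sirEGFP lay between them and oligo #2. Against sirEGFP Ei24 changed by -0.54 with oligo #1 (limma adjusted p = 0.0547), and its change was 0.32 with oligo #2 (adjusted p = 0.337). Sesn1 stood at 7.51, 7.59 and 8.01 in Mock, 7.69, 7.75 and 7.48 in sirEGFP, 7.36, 7.48 and 7.40 for oligo #1 and 8.22, 8.03 and 8.05 for oligo #2. The oligo #2 arrays were above every control and the oligo #1 arrays at or just below the lowest of them.

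Calls between the siRNAs for Ei24, Ppm1d, Btg2, Sesn1 and Ddb2 were lost without the 3 arrays that differed most from their groups (limma adjusted p 0.0768 to 0.227), which leaves oligo #1 with 1 array whose spread is assumed to be that of the other groups. Fas and Trp53inp1 kept theirs. Btg2 was also lost without oligo #1 array 1 (0.0703), oligo #2 array 1 (0.0507) or oligo #2 array 3 (0.113). Ddb2 was lost without oligo #1 array 3 (0.0528) or oligo #2 array 2 (0.0655), and Sesn1 without oligo #2 array 1 (0.053). Of macrophage markers, Csf1r was lower with oligo #2 than with oligo #1 by 0.80 and Lyz2 by 1.29 (limma adjusted p = 0.00807 and 0.00145), while Cd68 was higher by 0.58 without passing (0.326), and the part of this in the members' differences was not tested.

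**Figure D3:**
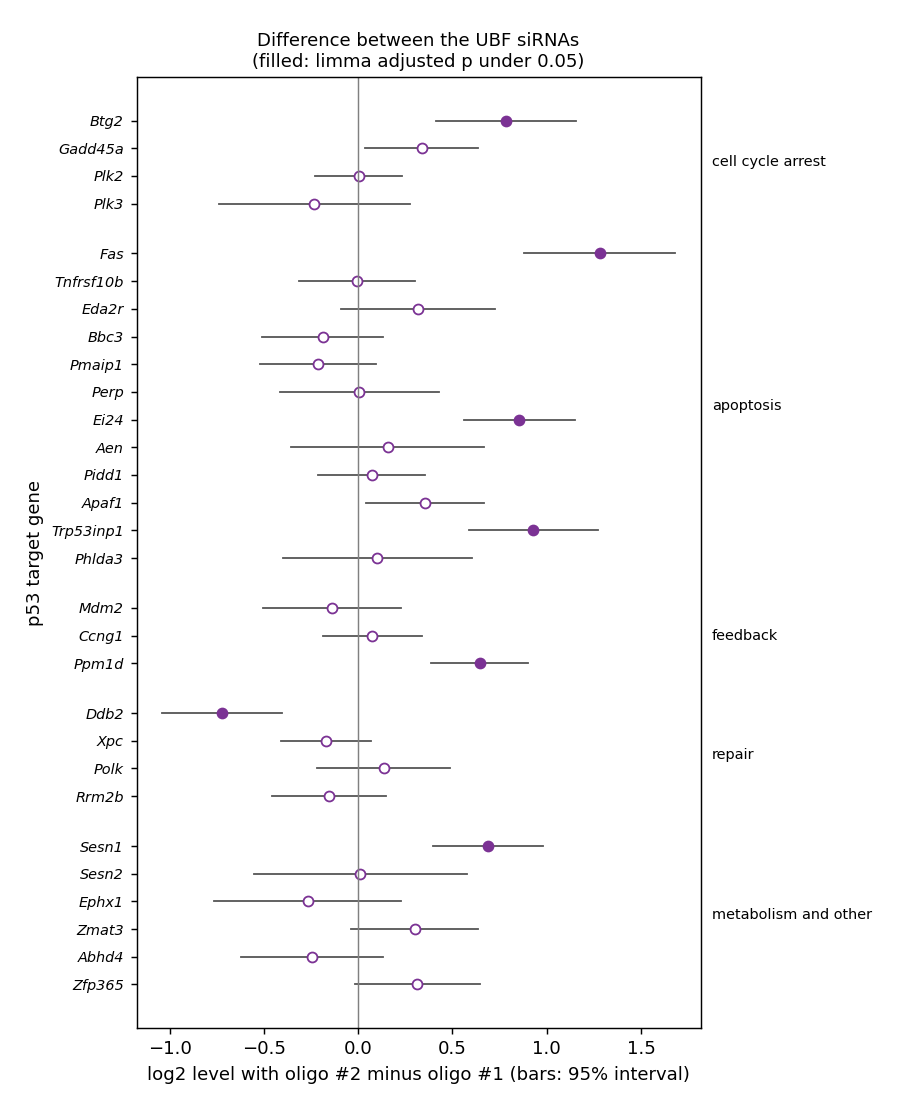
Difference in log2 level between the UBF siRNAs, oligo #2 minus oligo #1 (x axis), for the 29 p53 targets by outcome (y axis); bars are 95% intervals and filled points passed limma's adjusted p of 0.05. The 6 filled points right of 0 run from 0.64 for Ppm1d to 1.28 for Fas, and Ddb2 lies at -0.72.

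For the other 22 members no difference between the siRNAs passed the test, though some intervals are wide. Tnfrsf10b differed by -0.01 (95% interval -0.31 to 0.30), Abhd4 by -0.24 (-0.62 to 0.13) and Ephx1 by -0.27 (-0.76 to 0.23). The interval of Phlda3, 0.10 (-0.40 to 0.60), and that of Sesn2, 0.01 (-0.56 to 0.58), are wide enough to hold differences nearly as large as that of Sesn1. Ubtf differed between the siRNAs by -0.05 (-0.40 to 0.30).

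**Figure D4:**
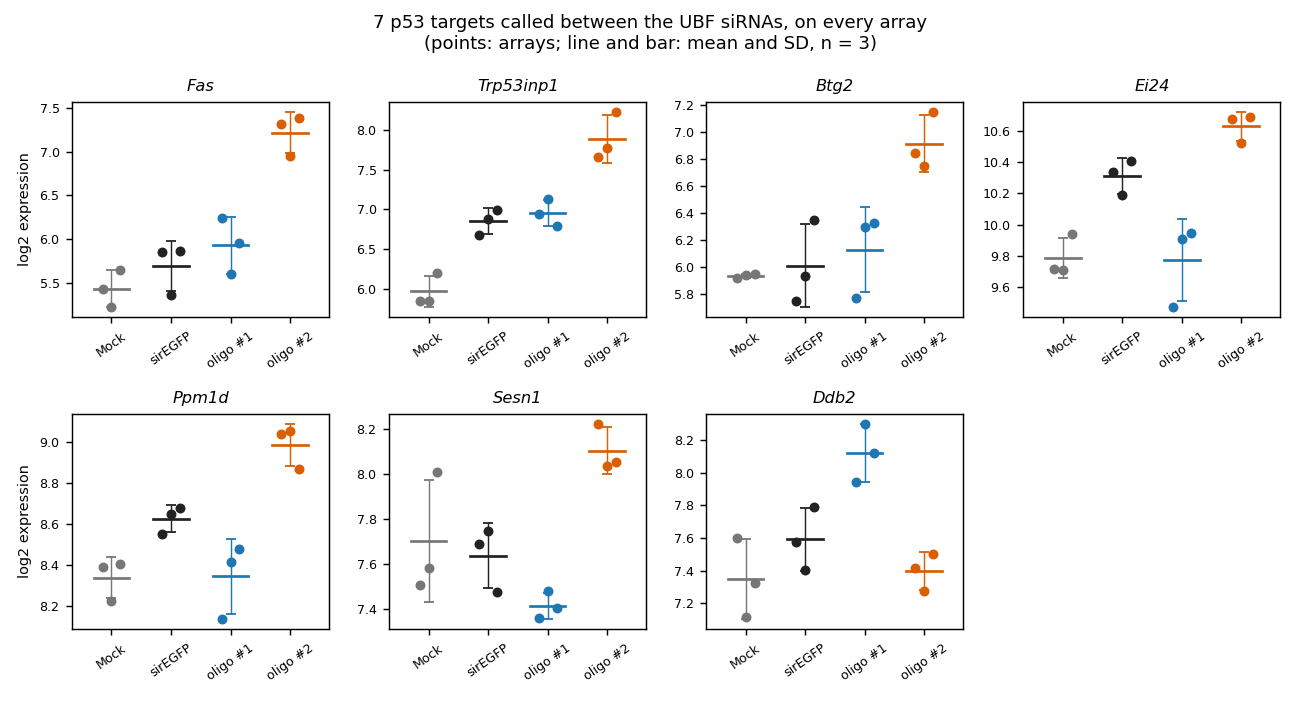
Log2 expression (y axis) of the 7 p53 targets called between the UBF siRNAs, on each array of the 4 groups (x axis), with points for arrays and a line and bar for the mean and SD of 3 arrays. In Fas, Trp53inp1, Ei24, Btg2, Sesn1 and Ppm1d the oligo #2 arrays lie above all others, and in Ddb2 the oligo #1 arrays do.

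The control siRNA against reagent alone called 0 members and 0.0% of all genes (limma; 1247 genes and 5 members had an unadjusted p under 0.05). The 5 were all higher with sirEGFP: Trp53inp1 by 0.88 (adjusted p = 0.31), Ei24 by 0.53 (0.668), Polk by 0.37 (0.781), Apaf1 by 0.31 (0.793) and Ppm1d by 0.29 (0.779). All 3 sirEGFP arrays lay above all 3 Mock arrays in 6 members, against 6.86% of all genes, and below them in 0, against 3.87%. Against Mock, oligo #1 called 5 members higher (1.35% of all genes called higher, 2.75% in all) and oligo #2 called 11 (2.93% and 4.25%). Called lower than Mock were 0 members with either, against 1.4% and 1.32% of all genes. Trp53inp1, Ddb2, Xpc, Mdm2 and Abhd4 rose with oligo #1. The 11 with oligo #2 were Btg2, Fas, Eda2r, Ei24, Apaf1, Trp53inp1, Mdm2, Ppm1d, Polk, Zmat3 and Zfp365. These comparisons share their Mock arrays, and each siRNA's arrays also enter its comparison with sirEGFP.

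The members were also counted array by array, as a description with no test. On the oligo #1 arrays 18, 11 and 12 members lay above all 6 control arrays, which is 62.1%, 37.9% and 41.4%, against 27.0%, 24.0% and 15.4% of all genes on the same arrays. On the oligo #2 arrays the numbers were 20, 21 and 20, or 69.0%, 72.4% and 69.0%, against 20.0%, 21.5% and 16.3%. With all 3 arrays required together, oligo #1 was above all 6 controls in 6 members (4.4% of all genes) and oligo #2 in 16 (6.52%). Below all 6 controls were 0 members, with oligo #1 (3.22% of all genes), with oligo #2 (3.85%) or with both together (0.692%).

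**Figure D5:**
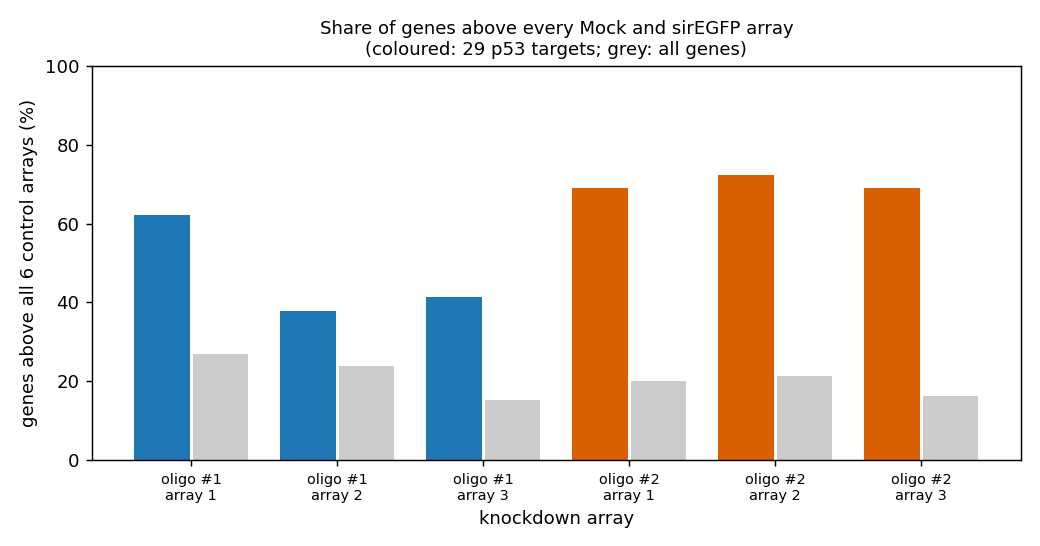
Percent of genes above all 6 control arrays (y axis) on each of the 6 knockdown arrays (x axis), for the 29 p53 targets and for all 19938 genes. The members run from 37.9% to 72.4% and all genes from 15.4% to 27.0%.

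Around the members, 19 regulators of p53 were measured from a list that covers its kinases, ligases and the ribosomal proteins that bind Mdm2. For the mean of both siRNAs 0 were called higher and 1 lower, against 1.21% and 0.722% of all genes. The 1 was Chek1, the checkpoint kinase, which fell by 0.51 (limma adjusted p = 0.0233). Chek1 stood at 9.38, 9.51 and 9.53 in Mock, 9.62, 10.04 and 9.93 in sirEGFP, 8.86, 8.93 and 8.97 for oligo #1 and 9.78, 9.73 and 9.86 for oligo #2. It was low with oligo #1 and within the sirEGFP range with oligo #2, a difference of 0.87 between the siRNAs (limma adjusted p = 0.00112). The deubiquitinase Usp7, which stabilises Mdm2 and p53, and the damage kinase Atm were also higher with oligo #2 than with oligo #1, by 0.52 and 0.78 (limma adjusted p = 0.0291 and 0.0359). Hipk2, a kinase that phosphorylates p53, rose with oligo #2 by 0.85 against sirEGFP (limma adjusted p = 0.0393). Mdm4 changed by -0.38 with each siRNA and did not pass (limma adjusted p = 0.276 and 0.286). The ribosomal protein genes Rpl5, Rpl23 and Rps7 had mean changes of -0.05, -0.07 and -0.08, and none passed. Rpl11 was carried only by a probe set shared with another gene and was not used.

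A list of further p53 targets outside the members held 41 measured genes. For the mean of both siRNAs 1.21% of all genes were called higher and 0.722% lower. Of the 41, 4 rose and 0 fell, with a median of 0.12. They were Steap3, an iron reductase (0.67), Ercc5, a repair nuclease (0.57), Foxo3, a forkhead factor (0.43), and Casp6, a caspase (0.40), with limma adjusted p of 0.0368 to 0.0454. Against Mock, Foxo3 rose with both siRNAs (0.69 and 0.65) and the other 3 passed with neither, Steap3 changing by 0.28 with oligo #1 and -0.15 with oligo #2 (adjusted p = 0.577 and 0.805). Of the 41, oligo #1 called 1 higher and 1 lower than Mock, against 1.35% and 1.4% of all genes. Oligo #2 called 4 higher and 1 lower, against 2.93% and 1.32%. The lower ones were Thbs1 with oligo #1 (-0.95, limma adjusted p = 0.0385) and Polh with oligo #2 (-0.64, 0.0264). Between the siRNAs, 3 of the 41 were called, Sesn3, Ckap2 and Rap2b, all higher with oligo #2, against 2.3% of all genes. Another list held 19 measured cell cycle genes that p53 is known to repress through p21 and the DREAM complex. For the mean of both siRNAs against sirEGFP, 0 of these 19 rose and 3 fell. Prc1, of the central spindle, fell by 0.78, Birc5, or survivin, by 0.55, and the mitotic kinase Cdk1 by 0.49 (limma adjusted p = 0.00471, 0.00657 and 0.0385). With oligo #1 8 of the 19 fell, against 1.43% of all genes called lower, and the median was -0.53. With oligo #2, also against sirEGFP, 0 were called by limma, where 0.742% of all genes were called lower. Of the 19, 4 had an unadjusted p under 0.05, and the median was 0.03. Against Mock, 11 fell with oligo #1 and 1, Birc5, with oligo #2, where 1.4% and 1.32% of all genes were called lower. The medians against Mock were -0.62 and -0.14. With sirEGFP itself 17 of the 19 lay below Mock, and 0 were called. The difference between the siRNAs was called for 7 of the 19, all higher with oligo #2, against 2.3% of all genes. Among them were Bub1b by 0.67, Rrm2 by 0.73 and Tyms by 0.57 (limma adjusted p = 0.0055, 0.00918 and 0.00944). In the same comparison 6 of the 29 members were called higher with oligo #2 and 1, Ddb2, lower, against 2.3% and 1.37% of all genes. What the differences in the members and in the cell cycle genes have in common was not tested.

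Of 18 other BCL2 family and caspase genes 0 were called by limma for the mean of both, against 1.93% of all genes. Of the 18, 5 had an unadjusted limma p under 0.05. Bcl2l11, which encodes the BH3-only protein Bim, rose with oligo #2 by 0.78 against sirEGFP (limma adjusted p = 0.0128) and was higher than with oligo #1 by 0.98 (adjusted p = 0.00203). The caspase inhibitor Xiap fell with oligo #1 by 0.73 against sirEGFP (limma adjusted p = 0.0431), and against Mock it changed by -0.50 without passing (0.196). With oligo #2 Xiap changed by 0.05 against sirEGFP (limma adjusted p = 0.955) and was higher than with oligo #1 by 0.78 (0.0228).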

How the data were processed

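Each of the 12 arrays has a deposited log2 value for each of 35512 probe sets. That they are log2 follows from the values themselves, whose array medians were 5.38 to 5.54. How the authors summarised, background-corrected and normalized them is not given in the sources used here. Limma is named in the submitters' processing notes without a version or a step. Platform annotation gave 1 symbol to 21789 probe sets, several to 1621 and none to 12102, and symbols were updated through RefSeq (GRCm38.p6).

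The deposited values were fitted without rescaling, by lmFit and eBayes of limma 3.58.1 (R 4.3.3). The fit held all 12 arrays and a coefficient for each of the 4 groups, which left 8 residual degrees of freedom. Two-sided p-values were adjusted over 19938 genes (Benjamini-Hochberg) and called at 0.05. SE is limma's moderated standard error. The script was tested on simulated data. The number of arrays limits precision.

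The members and lists were chosen with earlier results of these data known. All measured members are named. Values on every array are given for members called against sirEGFP or between the siRNAs and for the best known of each outcome. Those of Tnfrsf10b, Phlda3 and Chek1 were added after values had been seen. From other lists, genes called for the mean of both siRNAs or between the siRNAs were taken, but not all of them. The genes taken were not always those of smallest p. Thbs1, Polh, Sesn3, Ckap2 and Rap2b were added after values had been seen. Xiap, Hipk2 and Bcl2l11 with oligo #2 were named for calls with 1 siRNA. Mdm4, Rpl5, Rpl23 and Rps7 were named without a call, after values had been seen. Alternatives covered scaling, dim genes, probe sets, spread, array weights, a replicate block, the arrays in the fit, the control used and leaving out arrays. Same-numbered arrays deviated together, with every correlation over 0.1, for sirEGFP and oligo #2 (0.182 to 0.548) and for the siRNAs (0.115 to 0.388). The other comparisons had at least 1 pair at or below 0.1. The main fit left this pairing out, and all p-values come from it unless another setting is named. The labels do not say that a number marks a shared day.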

Additional observations from a re-analysis of the deposited data

Results flagged for a closer look

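The same 7 p53 targets that differed between the UBF siRNAs stand out here, since siRNAs against the same gene gave different changes and the difference itself passed limma's test. With oligo #2 minus oligo #1, Fas differed by 1.28, Trp53inp1 by 0.93, Ei24 by 0.86, Btg2 by 0.78, Sesn1 by 0.69, Ppm1d by 0.64 and Ddb2 by -0.72 on the log2 scale. Of these, Fas and Trp53inp1 kept the call in each of the 21 alternative settings run for this comparison. Groups of 3 arrays are too small for a test of outlying arrays.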

How the results depend on the processing

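Of 20 calls of a p53 target in a comparison with sirEGFP or between the siRNAs, 0 changed direction in the alternative settings run (22 for the mean of both siRNAs, 21 for the others), 16 were lost in at least 1 of them and 4 in none (Fas and Trp53inp1, with oligo #2 against sirEGFP and against oligo #1). For the mean of both siRNAs the 5 called members became 2 after centring, 3 after quantile normalization, 10 with array weights, 2 with only the arrays compared and 11 when Mock and sirEGFP were averaged as the control. Over all genes the 385 called became 306, 355, 1949, 236 and 982 in the same order, so the members' counts moved the same way as those of all genes. For oligo #1 the 3 became 1 after centring, 9 with array weights and 0 with only the arrays compared (limma; 9 had an unadjusted p under 0.05), where all genes went from 493 to 457, 3814 and 101. For oligo #2 the 5 became 10 with array weights and 9 without the 3 arrays that differed most from their groups, and all genes went from 451 to 1180 and 1049. Without those arrays the 5 of oligo #1 against Mock became 2 and the 7 between the siRNAs 2; with weights these became 14 and 12. With only the arrays compared, 380 genes and 6 members were called between the siRNAs in place of 732 and 7. Oligo #1 array 3 had a weight of 8.92 and the others 0.416 to 1.667. Leaving out 1 array at a time gave 0 to 7 for the mean, 0 to 6 for oligo #1 (0 without its array 3, where 10 had an unadjusted p under 0.05 in limma, and 6 without its array 2), 2 to 7 for oligo #2, 3 to 6 and 6 to 12 against Mock, 0 to 0 for sirEGFP against Mock and 5 to 7 between the siRNAs. Ubtf (-0.58) passed limma's test after centring (-0.61), quantile normalization (-0.63), with weights (-0.62), without the dimmest 25% of genes (-0.58) and against both controls (-0.67), and ran from -0.73 to -0.41 without 1 array. Over all groups, same-numbered arrays correlated at over 0.1 in 12 of 18 pairs (-0.237 to 0.551), and 9 of 12 arrays correlated best with their own number. With the replicate block 9 members were called for the mean of both siRNAs, 5 for oligo #1 and 8 for oligo #2, while all genes called rose to 789, 878 and 773, and Ubtf passed at -0.58. For the mean it added Btg2 (adjusted p = 0.0285), Tnfrsf10b (0.0469), Trp53inp1 (0.0211) and Phlda3 (0.00962), and for oligo #1 Phlda3 (0.0247) and, lower, Ei24 (0.0255). It left the 7 member calls between the siRNAs at 7. The causes of these changes were not tested.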

Other observations

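Genes outside the p53 lists also differed between the siRNAs or rose for the mean of both. Of 25 interferon-stimulated genes measured, 3 rose for the mean of both UBF siRNAs and 0 fell, against 1.21% and 0.722% of all genes. Ifitm3, a membrane protein that restricts virus entry, rose by 0.66 ± 0.11 (SE, limma adjusted p = 0.00487). Ddx58, the RNA sensor RIG-I, rose by 0.64 (limma adjusted p = 0.00518), and Tap1, a peptide transporter of antigen presentation, by 0.64 (0.0209). Ifitm3 and Ddx58 passed against sirEGFP with each siRNA taken alone. Tap1 passed with oligo #2 (0.96, limma adjusted p = 0.00314) but not with oligo #1 (0.32, 0.377). It was higher with oligo #2 than with oligo #1 by 0.64 (limma adjusted p = 0.0261), and the chemokine Cxcl10 by 1.02 (0.00432). Among fibroblast markers, the growth factor receptors Pdgfra and Pdgfrb rose with oligo #2 against sirEGFP by 0.91 and 1.75 (limma adjusted p = 0.0119 and 0.0126) and were higher than with oligo #1 by 0.81 and 1.33 (0.016 and 0.0418). Against Mock, Pdgfra rose with oligo #2 by 0.90 (limma adjusted p = 0.00932) and Pdgfrb changed by 0.91 without passing (0.179). Between the siRNAs Thy1, a surface glycoprotein, was lower with oligo #2 by 0.67 (0.0305).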
